A study of Mus musculus with 19 samples.

Results

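The 10 genes described here mark the endothelium of the liver, the cell layer that lines its blood vessels, and their RNA was followed in whole livers of mice of 3 Pkd1 genotypes. They were taken from the deposited count table by symbol. Lyve1, Stab1, Stab2, Clec4g and Oit3 form a sinusoidal group of 5, and Pecam1, Kdr, Vwf, Emcn and Cdh5 form a general and large-vessel group of 5. Genes called general are not confined to large vessels, so the latter group is no measure of endothelium outside the sinusoids. All 10 had a row among the 35976 rows of the table, and all 10 were among the 16463 genes that passed the filter on low counts. The libraries came from the livers of littermate mice with Pkd1 genotypes given as WT (n = 7), Het (n = 6) and Homo (n = 6). All 19 mice, the WT mice included, carried AAV-Cre, an adeno-associated virus that delivers Cre recombinase, and all were kept for 3 months on a steatohepatitis regimen of Western diet with CCl4, a toxin that injures hepatocytes. Pkd1 encodes polycystin-1, a large membrane protein of primary cilia whose loss causes cysts in kidney and liver. The promoter and serotype of the virus, the cells it reached, and the age and sex of the mice are not stated in the labels, and mice of this study without the diet or without the virus were not analysed here.

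Liver sinusoids are lined by a fenestrated endothelium without an organised basement membrane. Its cells take up hyaluronan, modified proteins and other circulating waste through scavenger receptors and lectins, whereas the endothelium of arteries and portal and central veins is continuous and stores von Willebrand factor. In chronic liver injury the sinusoidal cells are known to lose fenestrae and parts of this receptor set and to gain features of continuous capillaries, a process called capillarisation. RNA from a whole liver does not separate fewer cells of a type from less RNA per cell, and the values below cannot tell these apart.

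Library totals ran from 33108468 to 39915706 counts in WT, from 25847075 to 39243306 in Het and from 31985203 to 42142903 in Homo. Pkd1 itself was measured over the whole gene, so that counts outside a deleted part would remain. It ran from 328 to 452 CPM (counts scaled to library size) in WT, from 340 to 445 CPM in Het and from 334 to 380 CPM in Homo. The log2 fold change of Pkd1 in Homo against WT was -0.18 ± 0.08 (SE), with an adjusted p of 0.315 in edgeR's quasi-likelihood test, so this count does not check the genotype labels. The summed level of 10 hepatocyte genes was 26206 to 32735 CPM over the 19 libraries. The numbers at the end of the sample titles, called mouse numbers here, are not explained in the labels. In a fit with genotype and mouse number, 1054 of the 16463 genes (6.4%) had a slope on the mouse number at an adjusted p under 0.05, and values of the members with this term are given below.

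The start regions of 3 sinusoidal genes are shown because their products, the stabilins and a lectin, belong to the receptor set that defines the sinusoidal cell. Each runs from 250 bases before to 50 bases after the transcription start on the gene's own strand, 5′ to 3′, as RefSeq gives it on GRCm38.p6. Stab1 lies at chr14:31168592-31168891 (minus strand), Stab2 at chr10:87007893-87008192 (minus strand) and Clec4g at chr8:3720602-3720901 (minus strand). Capitals mark AGGAAG or its reverse complement CTTCCT, a core bound by ETS factors, a family that includes the endothelial regulators Erg and Fli1.
Stab1: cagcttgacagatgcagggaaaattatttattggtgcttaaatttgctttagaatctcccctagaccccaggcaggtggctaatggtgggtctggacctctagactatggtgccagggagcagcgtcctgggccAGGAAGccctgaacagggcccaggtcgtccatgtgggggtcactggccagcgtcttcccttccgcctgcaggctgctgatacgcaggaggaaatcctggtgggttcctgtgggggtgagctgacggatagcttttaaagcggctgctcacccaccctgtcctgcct
Stab2: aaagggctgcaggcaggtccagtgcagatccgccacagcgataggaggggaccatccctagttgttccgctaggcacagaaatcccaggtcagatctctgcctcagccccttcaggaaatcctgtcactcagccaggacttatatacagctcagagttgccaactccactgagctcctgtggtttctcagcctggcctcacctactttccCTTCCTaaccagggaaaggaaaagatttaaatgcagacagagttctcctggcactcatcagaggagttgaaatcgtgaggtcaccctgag
Clec4g: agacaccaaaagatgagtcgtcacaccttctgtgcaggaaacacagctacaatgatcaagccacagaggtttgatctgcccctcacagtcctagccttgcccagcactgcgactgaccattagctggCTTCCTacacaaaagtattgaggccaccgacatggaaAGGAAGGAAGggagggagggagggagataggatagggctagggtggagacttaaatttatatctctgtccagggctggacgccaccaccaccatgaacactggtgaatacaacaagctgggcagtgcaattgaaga
RefSeq start regions were matched by symbol for 5 of the 10 members, these 3 with Kdr and Emcn. AGGAAG on either strand occurred once in Stab1, once in Stab2 and 3 times in Clec4g, where 2 of the 3 matches overlap. It occurred 2 times in Emcn and not in Kdr. The same letters stood in 35.1% of 27025 mouse start regions of the same length. This set was taken without repeats of a gene symbol and does not cover every chromosome. AGATAA or TTATCT, a core bound by GATA factors such as Gata4, was in none of the 5 and in 11.4% of the same 27025 start regions. Other forms of the GATA core were not searched, so their absence is not shown. The counts of both cores are matches of letters in a short window and no measure of binding.

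Per kilobase of exon, the adherens junction and adhesion genes stood highest. In WT livers Pecam1 averaged 14.3 ± 1.23 CPM per kilobase (SD, n = 7) and Cdh5 12.2 ± 0.62, and the ranges of these 2 overlapped. Clec4g followed at 7.92 ± 1.02, with no overlap with Cdh5 above it or Stab1 below it, though its lowest liver was below the highest liver for Kdr. Stab1 (6.06 ± 0.17), Stab2 (5.94 ± 0.19) and Kdr (5.86 ± 0.93) overlapped one another. Oit3 (4.09 ± 0.30) and Lyve1 (2.96 ± 0.55) came next, each apart from its neighbours. Vwf (0.97 ± 0.13) and Emcn (0.81 ± 0.17) were lowest and overlapped. In Het and Homo livers, Kdr was above Stab1 and Stab2 in this order of levels, and the ranges of these neighbours overlapped in both genotypes; the places of the other 7 genes were as in WT.

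Lyve1, a hyaluronan receptor of sinusoidal and lymphatic endothelium that some macrophages also carry, had the largest log2 difference from WT among the 10 members, in Homo and in Het livers alike. In WT livers it ran from 5.94 CPM in mouse 12 through a median of 8.30 to 10.5 CPM in mouse 11. In Het livers it ran from 3.95 CPM in mouse 20 through 5.66 to 6.72 CPM in mouse 6, and in Homo livers from 3.64 CPM in mouse 18 through 5.67 to 7.21 CPM in mouse 8. Mouse 12 was the only WT liver inside the range of either other genotype: the other 6 of 7 WT livers were above every Het and every Homo liver. Mean levels were 8.63 ± 1.59 CPM in the 7 WT livers, 5.65 ± 1.03 CPM in the 6 Het livers and 5.53 ± 1.34 CPM in the 6 Homo livers (± SD).

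Homo livers stood at a log2 fold change of -0.64 ± 0.16 (SE) against WT for Lyve1, with a 95% interval from -0.99 to -0.30, and the adjusted p of 0.0907 missed the threshold of 0.05. In Het against WT it was -0.61 ± 0.16, with an interval from -0.96 to -0.27 and an adjusted p of 0.342. Between Homo and Het it was -0.03 ± 0.17, with an interval from -0.39 to 0.33 that holds differences of either sign. Set against the mean of Het and Homo together, a comparison added after these values were seen, WT was higher: the log2 fold change of the mutants was -0.63 ± 0.14 (adjusted p = 0.0820).

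The call on Lyve1 in Homo against WT turned on the tool and on 1 library. DESeq2 gave an adjusted p of 0.0154 for the same size of difference, -0.64. Without WT mouse 12, edgeR gave -0.72 with an adjusted p of 0.0372, and the other 18 of the 19 fits that left out 1 library missed the threshold. With mouse number as a covariate the difference was -0.48 (adjusted p = 0.414). The slope of Lyve1 on the mouse number in that fit was -0.26 ± 0.12 on the log2 scale for every 10 numbers (adjusted p = 0.243).

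**Figure D1:**
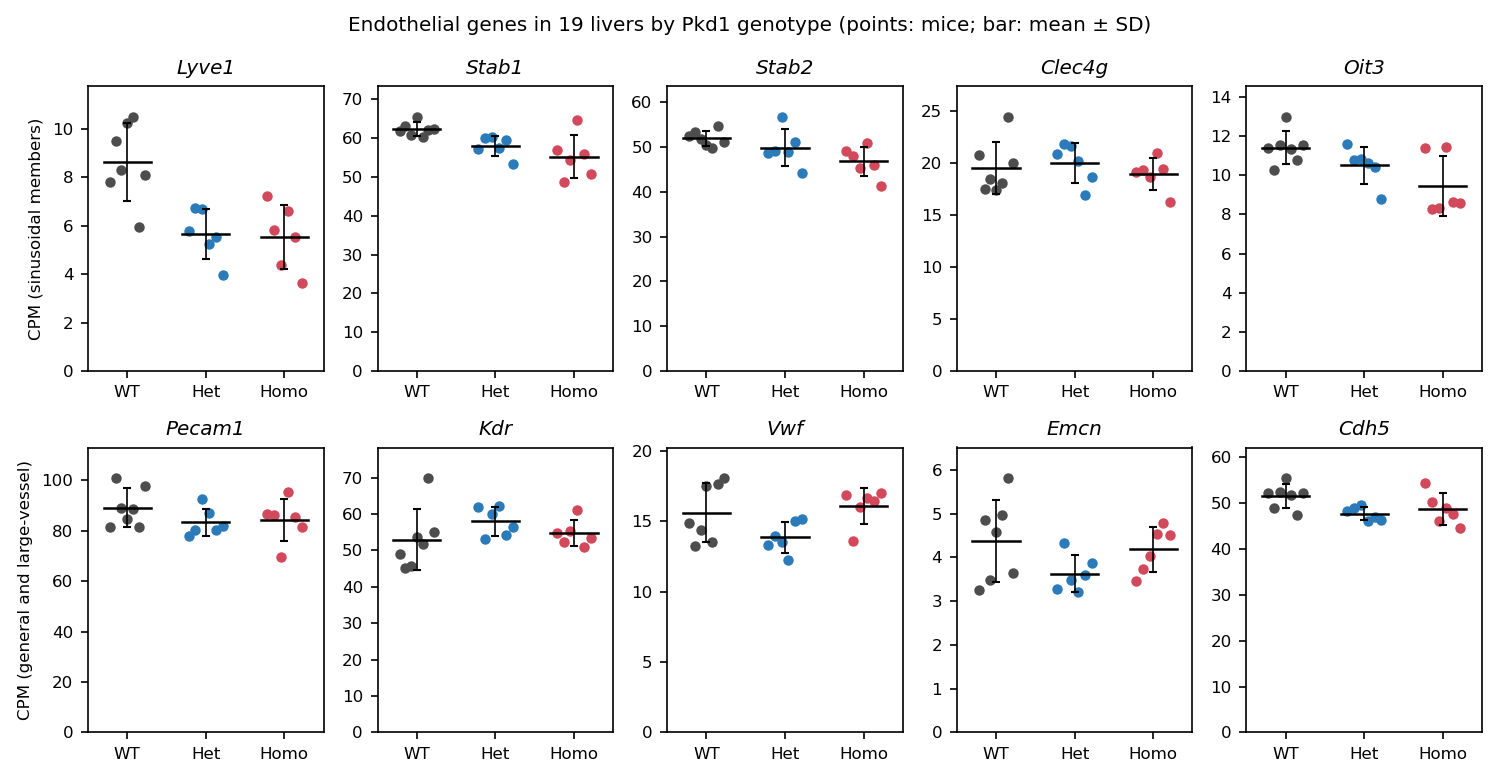
CPM of the 10 endothelial genes in each liver, by genotype (sinusoidal genes above, general and large-vessel genes below; points are mice in order of mouse number, the long bar the mean and the error bar the SD; each axis starts at 0). For Lyve1, 6 of 7 WT points lie above all Het and Homo points and WT mouse 12 lies at 5.94 CPM; the other genes show ranges that overlap more.

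Stab1 and Stab2 encode stabilin-1 and stabilin-2, scavenger receptors of the sinusoidal cell, of which stabilin-2 is a main clearance receptor for hyaluronan. Stab1 was narrow in WT livers, from 60.4 CPM in mouse 11 through 62.0 to 65.6 CPM in mouse 9. It ran from 53.3 CPM through 58.5 to 60.4 CPM in Het and from 48.7 CPM in mouse 10 through 55.2 to 64.6 CPM in mouse 16 in Homo. Of the 6 Homo livers, 5 were below the lowest WT liver and mouse 16 was inside the WT range. Of the 6 Het livers, 5 were also below the lowest WT liver, and the highest, mouse 7, exceeded it by less than the rounding shown here. On the log2 scale, the difference for Stab1 was -0.18 ± 0.06 in Homo against WT (adjusted p = 0.207) and -0.10 ± 0.06 in Het against WT (adjusted p = 0.626). Without Homo mouse 16 the first of these was -0.23 with an adjusted p of 0.0722.

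Stab2 ran from 49.9 through 51.7 to 54.8 CPM in WT and from 44.3 through 49.1 to 56.8 CPM in Het. In Homo livers it ran from 41.3 through 47.1 to 50.8 CPM, and 5 of these 6 livers were below the lowest WT liver. In Het, 4 of 6 livers were below the lowest WT liver and mouse 7 was above the highest. Stab2 differed by a log2 fold change of -0.15 ± 0.06 in Homo against WT (adjusted p = 0.281) and -0.06 ± 0.06 in Het against WT (adjusted p = 0.803).

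Oit3 encodes a secreted zona pellucida domain protein whose RNA is used as a sinusoidal marker in mouse liver. It ran from 10.3 through 11.4 to 13.0 CPM in WT, from 8.79 through 10.7 to 11.6 CPM in Het and from 8.27 through 8.61 to 11.4 CPM in Homo. The Homo livers were not uniform: 4 of 6 were below the lowest WT liver, while mice 8 and 16 were both at 11.4 CPM, beside the WT median. Against WT, the log2 fold change of Oit3 in Homo was -0.27 ± 0.09 (adjusted p = 0.233), and in Het it was -0.12 ± 0.09 (adjusted p = 0.749).

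Clec4g encodes LSECtin, a C-type lectin of sinusoidal endothelium that binds glycans. It ran from 17.4 through 18.4 to 24.5 CPM in WT, where mouse 12 was the highest, from 16.9 through 20.5 to 21.9 CPM in Het and from 16.3 through 19.3 to 20.9 CPM in Homo. The 3 ranges overlapped over most of their length. Clec4g had a log2 fold change of -0.04 ± 0.09 in Homo against WT, with an interval from -0.22 to 0.14 (adjusted p = 0.890), and 0.04 ± 0.09 in Het against WT (adjusted p = 0.937).

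The general endothelial genes begin with the junction proteins. Pecam1, an adhesion molecule of the contacts between endothelial cells, ran from 81.2 through 88.7 to 101 CPM in WT, from 77.7 through 81.0 to 92.4 CPM in Het and from 69.7 through 85.9 to 95.1 CPM in Homo. Its log2 fold change in Homo against WT was -0.08 ± 0.07, with an interval from -0.23 to 0.06 (adjusted p = 0.656), and in Het against WT it was -0.10 ± 0.07 (adjusted p = 0.720). Cdh5, or VE-cadherin, the cadherin of endothelial adherens junctions, ran from 47.4 through 52.1 to 55.5 CPM in WT, from 46.0 through 47.6 to 49.5 CPM in Het and from 44.6 through 48.3 to 54.4 CPM in Homo. Of the 7 WT livers, 5 were above every Het liver, and only 1 was above every Homo liver. For Cdh5 the log2 fold change was -0.11 ± 0.05 in Het against WT (adjusted p = 0.565) and -0.08 ± 0.05 in Homo against WT (adjusted p = 0.537).

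Kdr encodes the main signalling receptor for vascular endothelial growth factor A. It ran from 45.3 through 51.7 to 69.9 CPM in WT, from 53.1 through 58.3 to 62.2 CPM in Het and from 51.0 through 54.1 to 61.1 CPM in Homo. The WT range was the widest of the 3, because mouse 12 stood at 69.9 CPM and the next WT liver at 55.2 CPM. Its log2 fold change was 0.13 ± 0.08 in Het against WT (adjusted p = 0.681) and 0.05 ± 0.08 in Homo against WT (adjusted p = 0.865). Emcn, or endomucin, a sialomucin on the surface of capillary and venous endothelium, ran from 3.25 through 4.58 to 5.82 CPM in WT, from 3.21 through 3.54 to 4.34 CPM in Het and from 3.45 through 4.28 to 4.79 CPM in Homo. Its log2 fold change was -0.27 ± 0.14 in Het against WT (adjusted p = 0.591) and -0.06 ± 0.14 in Homo against WT (adjusted p = 0.890).

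Vwf encodes von Willebrand factor, the platelet-binding glycoprotein of large-vessel endothelium. It ran from 13.2 through 14.9 to 18.1 CPM in WT, from 12.3 through 13.7 to 15.2 CPM in Het and from 13.6 through 16.6 to 17.0 CPM in Homo. In 5 of 6 Homo livers it was above the highest Het liver, and Homo mouse 10 was inside the Het range. Vwf had a log2 fold change of 0.21 ± 0.09 in Homo against Het (adjusted p = 0.733), -0.17 ± 0.09 in Het against WT (adjusted p = 0.592) and 0.04 ± 0.09 in Homo against WT (adjusted p = 0.874). With mouse number as a covariate, the difference between Homo and WT was -0.05 for Vwf and -0.01 for Kdr, the opposite sign to the values without it. The slope of Vwf on the mouse number was 0.15 ± 0.06 on the log2 scale for every 10 numbers (adjusted p = 0.197).

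No member passed the threshold in any of the 3 comparisons between genotypes. In Homo against WT, 0 of the 10 members were called, where 79 of 16463 genes (0.48%) were called, 48 higher and 31 lower. In Het against WT, 0 of 10 were called, where 4 genes (0.0243%) were called, and in Homo against Het, 0 of 10, where 30 genes (0.182%) were called. With Het and Homo together against WT, 0 of 10 members and 20 of all genes (0.121%) were called. At shares this small, a count of 0 among 10 genes is what the background gives and says little on the members. At an unadjusted p under 0.05 in edgeR, 4 of 5 sinusoidal and 0 of 5 general members were reached in Homo against WT, where 2121 of all genes tested were. In Het against WT it was 1 of 5 in each group (1455 of all genes), in Homo against Het 0 of 5 sinusoidal and 1 of 5 general members (1036 of all genes), and with Het and Homo together 4 of 5 and 1 of 5 (2069 of all genes). In DESeq2, 1 of the 5 sinusoidal members, Lyve1, and 0 of the 5 general members were called in Homo against WT, where 304 of 16461 genes (1.85%) were.

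In Homo against WT, all 5 sinusoidal members had a log2 fold change below 0, with a median of -0.18, beside 3 of 5 general and large-vessel members, with a median of -0.06. The median over all genes tested was 0.00191. In Het against WT, 4 of 5 members were below 0 in each group, with medians of -0.10 and -0.11. In Homo against Het, all 5 sinusoidal members were below 0 (median -0.08) and 1 of 5 general members was (median 0.03). Any pair of these comparisons shares the libraries of 1 genotype, so they are not independent of one another, and the difference between the member groups was not tested. The slopes on the mouse number split in a like way, with all 5 sinusoidal members below 0 (median -0.07) and 3 of 5 general members above 0 (median 0.09), and WT holds the mice 1 to 3 while no Homo mouse has a number below 8. With mouse number as a covariate, all 5 members of each group were below 0 in Homo against WT, with medians of -0.17 and -0.05. Stab1 was then at -0.17, Stab2 at -0.11, Oit3 at -0.21 and Clec4g at -2.31e-05 (adjusted p = 0.496, 0.729, 0.635 and 1.00).

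**Figure D2:**
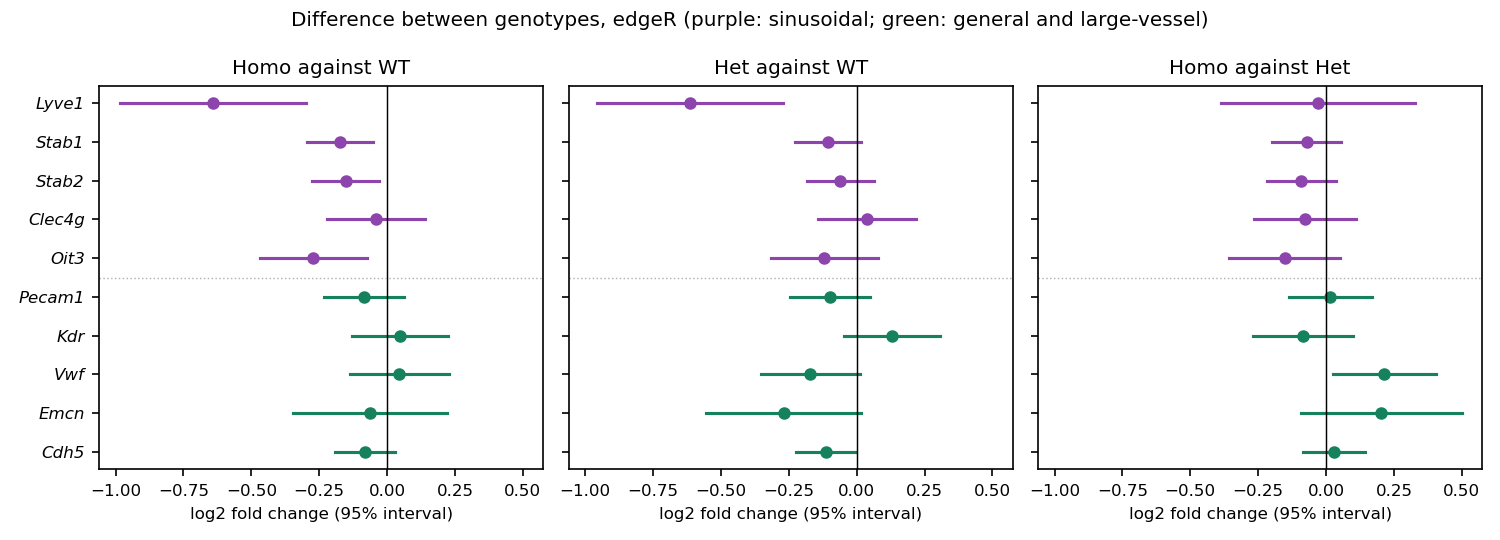
Log2 fold change with its 95% interval from edgeR for each endothelial gene in the 3 comparisons between genotypes (purple, sinusoidal; green, general and large-vessel; points are estimates over all 19 libraries, dotted line between the gene groups). Lyve1 lies at -0.64 and -0.61 against WT, the other sinusoidal genes lie between -0.27 and 0.04 there, and the intervals of all general genes in Homo against WT include 0. In the other comparisons, the intervals of Cdh5 in Het against WT (-0.22 to -0.00051) and of Vwf in Homo against Het (0.03 to 0.40) exclude 0, and neither gene was called.

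The member groups can also be compared in each liver. The value taken was the mean log2 CPM of the sinusoidal members minus that of the general and large-vessel members. This difference ran from -0.48 through a median of -0.26 to -0.15 in WT, from -0.61 through -0.31 to -0.26 in Het and from -0.76 through -0.52 to -0.36 in Homo. Het lay close to WT in the median and the 3 ranges overlapped. WT and Homo overlapped only through WT mouse 12: the next lowest WT liver, mouse 13, was at -0.33 and the highest Homo liver at -0.36. Lyve1 is part of this value and had a log2 fold change of -0.64 in Homo against WT. The other sinusoidal members lay between -0.27 and -0.04 there. The part of Lyve1 alone in the difference between the groups was not tested. Livers with higher mouse numbers tended to be lower inside each genotype: the difference was -0.15 in WT mouse 1 and -0.48 in WT mouse 12, -0.28 in Het mouse 4 and -0.61 in Het mouse 20, and -0.36 in Homo mouse 8 and -0.76 in Homo mouse 18. Genotype and mouse number are therefore mixed in these medians. The summed level of the sinusoidal members was 150 to 158 CPM in WT (median 154), 129 to 156 CPM in Het (median 144) and 120 to 154 CPM in Homo (median 133). The summed level of the general members was 200 to 227 CPM in WT, 200 to 219 CPM in Het and 191 to 226 CPM in Homo.

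Single livers set the ends of many ranges. Homo mouse 16 was the highest Homo liver for 6 of the 10 members and Homo mouse 18 the lowest for 4. Het mouse 20 was the lowest Het liver for 4 members and Het mouse 7 the highest for 4. WT mouse 12 was the highest WT liver for 4 members, Stab2, Clec4g, Kdr and Emcn, and the lowest for Lyve1 and Cdh5, so that it set ends of WT ranges in both directions.

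**Figure D3:**
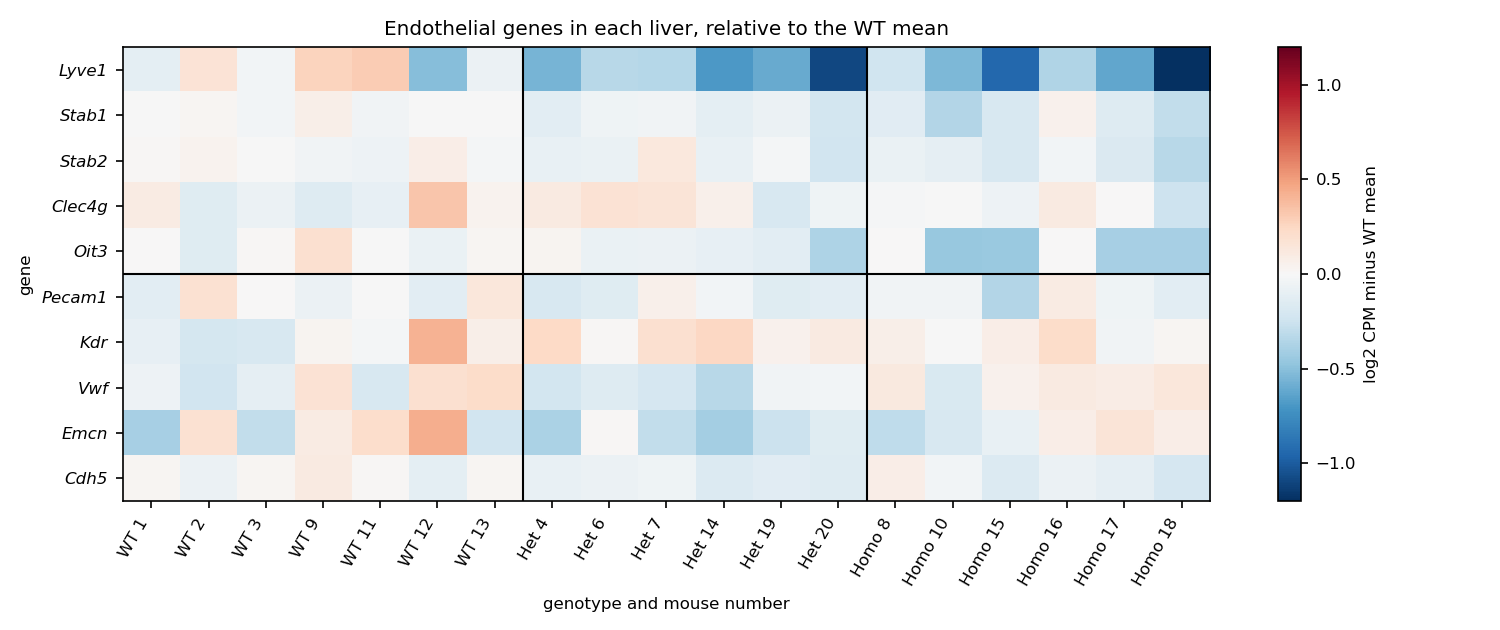
Log2 CPM of each endothelial gene in each of the 19 livers, minus the mean of the 7 WT livers (columns, genotype and mouse number; rows, genes, sinusoidal above the line; blue below and red above the WT mean). The Lyve1 row is blue in all 12 Het and Homo livers and, among WT livers, deepest in mouse 12, and the Oit3 row is blue in 4 of 6 Homo livers but not in mice 8 and 16.

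Whether the members moved together between livers of 1 genotype was measured by removing each gene's genotype means and correlating the rest over the 19 libraries. All 10 pairs within the sinusoidal group had a positive Pearson's r, with a median of 0.53. Of the 10 pairs within the general and large-vessel group, 5 were positive, with a median of -0.01, and of the 25 pairs between the groups 18 were positive, with a median of 0.22. These 45 correlations share their libraries and their scaling, and the medians are a description. Mouse number was not removed, and the permutations below took livers of 1 genotype as exchangeable. Slopes on the mouse number were below 0 for all 5 sinusoidal members and for 2 of 5 general members, Pecam1 and Cdh5. The part of these slopes in the correlations was not tested.

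The closest pair joined the 2 groups. Lyve1 and Cdh5 had r = 0.77 and Spearman's rho = 0.68, with a permutation p of 0.00045 for r and 0.00505 for rho (two-sided, 100000 permutations within genotype). Adjusted over the 45 pairs these were 0.0203 and 0.153, so r passed 0.05 and rho did not. Without WT mouse 12 and Homo mouse 18, the 2 livers farthest from the median of Lyve1, r was 0.64. Stab1 and Oit3 followed with r = 0.72 and rho = 0.66 (permutation p = 0.00391 and 0.00679, adjusted 0.0621 and 0.153), and r was 0.58 without Homo mice 10 and 16. Oit3 and Cdh5 had r = 0.68 and rho = 0.61 (permutation p = 0.00414 and 0.0124, adjusted 0.0621 and 0.181), and r was 0.63 without Homo mice 8 and 16. Lyve1 and Clec4g, both of the sinusoidal group, had r = 0.02 and rho = 0.08 (permutation p = 0.931 and 0.751, adjusted 0.974 and 0.933), and r was 0.18 without WT mouse 12 and Homo mouse 18. Clec4g and Kdr had r = 0.62 and rho = 0.38 (permutation p = 0.0177 and 0.142, adjusted 0.133 and 0.473). Without WT mouse 12 and Het mouse 19 r fell to 0.32, so this relation rests on those livers. Within its own group Clec4g was closest to Stab2, with r = 0.52 and rho = 0.53 (permutation p = 0.0169 and 0.0265, adjusted 0.133 and 0.24). For that pair r was 0.39 without Het mouse 7 and Homo mouse 18.

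**Figure D4:**
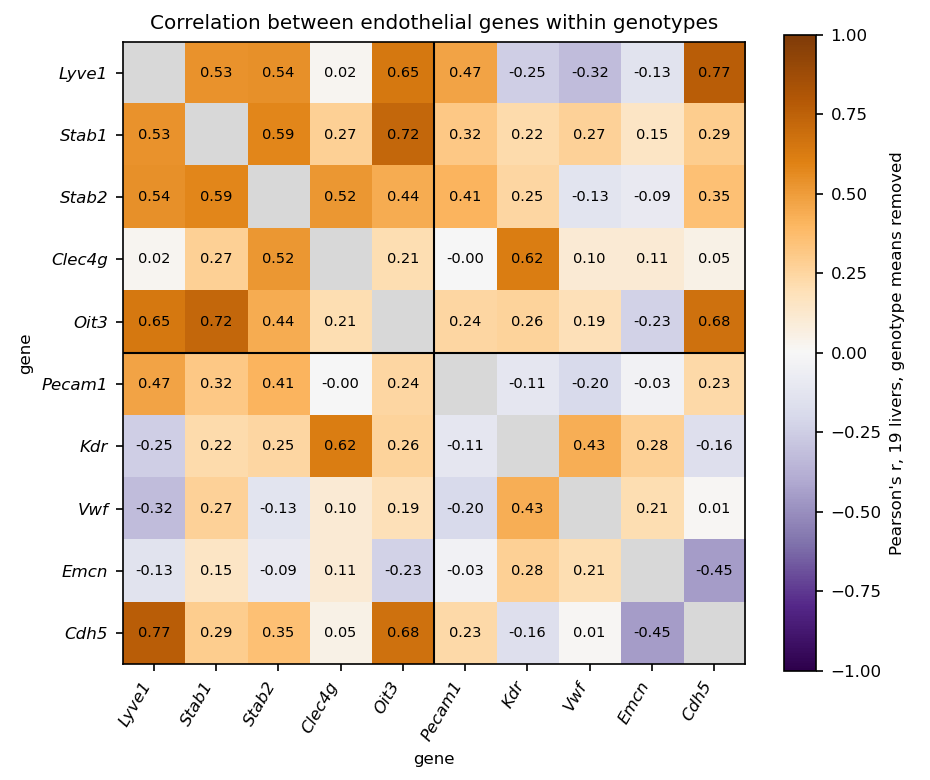
Pearson's r between each pair of endothelial genes over 19 livers after removal of the genotype means (both axes, genes; black lines separate the sinusoidal genes, upper left, from the general and large-vessel genes, lower right). The sinusoidal block is positive throughout, from 0.02 to 0.72, the general block runs from -0.45 to 0.43, and Lyve1 with Cdh5 is the highest pair at 0.77.

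Among 9546 other genes with a mean of at least 5 CPM, those most like the average of the sinusoidal members over the 19 libraries, by Pearson's r of the same residuals, were C1qtnf1 (r = 0.83, rho = 0.73), Trafd1 (0.80 and 0.78), Rabep2 (0.80 and 0.74), Alyref (0.78 and 0.63) and Foxk1 (0.76 and 0.78). Among those most like the average of the general members were Mtif3 (r = 0.78, rho = 0.81), Mrc1 (0.77 and 0.75), Susd1 (0.77 and 0.82) and Snx30 (0.77 and 0.75). Mrc1, the mannose receptor of sinusoidal cells and macrophages, was thus among the genes most like the general group. Its r with the average of the sinusoidal members is not given here. The gene most like Lyve1 alone was Mrps14 (r = 0.81, rho = 0.61). These are the highest of many values and carry no test.

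A wider list of 20 sinusoidal genes, among them the scavenger and Fc receptors, the Wnt ligands Wnt2 and Wnt9b and the transcription factors Gata4 and Maf, was set beside the 5 members. Of its 19 tested genes, 0 were called in each comparison between genotypes. In Homo against WT their log2 fold changes ran from -0.11 to 0.19 with a median of -0.02, 8 above 0 and 11 below, and 0 reached an unadjusted p under 0.05. None of the 19 was as low as Lyve1, Stab1, Stab2 or Oit3. The smallest p belonged to Dpp4, a membrane peptidase, at -0.10 ± 0.06 (adjusted p = 0.511), followed by Dnase1l3, a secreted nuclease, at -0.09 ± 0.07 (adjusted p = 0.656), and Tfec, a transcription factor, at 0.19 ± 0.18 (adjusted p = 0.700). The summed level of the 20 genes was 844 to 951 CPM in WT, 780 to 928 CPM in Het and 807 to 969 CPM in Homo, with much overlap.

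Of 25 further general endothelial genes, 24 were tested and 0 were called in each comparison between genotypes. Their median in Homo against WT was -0.04, with 11 above 0 and 13 below. Egfl7, a secreted protein of endothelium, was at -0.24 ± 0.10 (adjusted p = 0.334), and the transcription factors Sox18 and Tal1 were at -0.36 ± 0.16 (adjusted p = 0.365) and -0.49 ± 0.25 (adjusted p = 0.413).

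Of 22 genes of arteries, veins and capillarised endothelium, 21 were tested, and 1 was called in Homo against WT, Cdh13. It encodes T-cadherin, a lipid-anchored cadherin that binds adiponectin and is made by endothelium and by other cells. Cdh13 ran from 4.84 through 6.86 to 7.95 CPM in WT, from 7.52 through 8.31 to 10.5 CPM in Het and from 8.66 through 9.85 to 12.0 CPM in Homo. Every Homo liver was above every WT liver, and the Het livers overlapped both. The log2 fold change in Homo against WT was 0.65 ± 0.12 with an adjusted p of 0.00936, and each of the 19 fits that left out 1 library kept the call. With mouse number as a covariate it was 0.54 (adjusted p = 0.0751), without mice 1 to 3 it was 0.48 (adjusted p = 0.175) and within mice 8 to 13 it was 0.52 (adjusted p = 0.513), past the threshold in none of these.

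The next genes of that list were not called. Jag1, a Notch ligand of arterial endothelium and of bile duct and stellate cells, ran from 5.79 to 9.35 CPM in WT and from 8.01 to 13.3 CPM in Homo (log2 fold change 0.47 ± 0.14, adjusted p = 0.159). Plvap, which forms the diaphragms of fenestrae and caveolae, ran from 20.8 to 30.7 CPM in WT and from 21.4 to 22.8 CPM in Homo (-0.26 ± 0.08, adjusted p = 0.168). With mouse number as a covariate Plvap was at -0.13 (adjusted p = 0.696). The 6 Homo livers were close together for Plvap, inside the WT range. The log2 fold changes of the list in Homo against WT ran from -1.45 to 0.84, with a median of 0.16, 13 above 0 and 8 below. In Het against WT the median was -0.01, with 9 above 0 and 12 below. In Homo against Het it was 0.17, with 16 above 0 and 5 below.

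Of 15 genes of vascular endothelial growth factor and angiopoietin signalling, 13 were tested and 0 were called in each comparison between genotypes. In Het against WT, 8 of 13 were above 0 (median 0.09), and in Homo against Het 7 of 13 (median 0.02). In Homo against WT, 12 of 13 were above 0, with a median of 0.08, where 50.3% of all genes tested were above 0. Of the 13, 0 reached an unadjusted p under 0.05 there in edgeR. Nrp1, a co-receptor of Kdr, was at 0.26 ± 0.14 (adjusted p = 0.437), Angpt2, a ligand of the Tie2 receptor made by activated endothelium, at -0.33 ± 0.26 (adjusted p = 0.612), and Epas1, a hypoxia-inducible factor subunit, at 0.08 ± 0.07 (adjusted p = 0.665).

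Other cells carry some of the same genes or are measured with them in whole liver. Lymphatic endothelium also carries Lyve1. Of 7 lymphatic genes, 5 were tested and 0 were called in each comparison between genotypes. Their summed level was 499 to 1077 CPM in WT, 509 to 1114 CPM in Het and 812 to 1012 CPM in Homo, and 1 of the 7 was at 0 in every library of each genotype. This sum is no measure of lymphatic endothelium, because the list holds genes that other liver cells express. Reln, for example, is also in the list of stellate cell genes below. Pdpn, or podoplanin, which bile duct and stromal cells can also express, ran from 0.21 to 1.02 CPM in WT, from 0.24 to 0.73 CPM in Het and from 0.75 to 1.81 CPM in Homo (1.26 ± 0.34 in Homo against WT, adjusted p = 0.110). Mmrn1 was at 0.35 ± 0.26 and Prox1, which hepatocytes also express, at 0.29 ± 0.24 (adjusted p = 0.600 and 0.646). Of the 5, 4 were above 0 in Homo against WT (median 0.29) and 2 in Het against WT (median -0.07). The part of lymphatic endothelium in the Lyve1 values was not tested.

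Of 15 macrophage and Kupffer cell genes, 0 were called in each comparison between genotypes. Their summed level was 275 to 356 CPM in WT, 284 to 303 CPM in Het and 246 to 347 CPM in Homo. Its medians were 292 CPM in WT, 293 CPM in Het and 325 CPM in Homo. Of the 15, 9 were below 0 in Homo against WT (median -0.06) and 12 in Het against WT (median -0.18). Both of these medians had the sign of Lyve1, while the summed level had its highest median in Homo. The part of these genes in the Lyve1 values was not tested. Cd5l, a secreted protein of Kupffer cells, was at -0.32 ± 0.12 in Homo against WT (adjusted p = 0.276), C1qb, a complement subunit, at -0.10 ± 0.09 (adjusted p = 0.669), and Gpnmb, a glycoprotein of lipid-laden macrophages, at 0.44 ± 0.39 (adjusted p = 0.677). Of 14 stellate cell and fibroblast genes, 0 were called, and their summed level was 366 to 566 CPM in WT, 410 to 469 CPM in Het and 449 to 506 CPM in Homo. Of the 14, 9 were above 0 and 5 below in Homo against WT (median 0.13), and 4 were above 0 and 10 below in Het against WT (median -0.07). Postn, a matrix protein of activated fibroblasts, was at 0.53 ± 0.13 (adjusted p = 0.0775), Rgs5, a marker of pericytes, at 0.22 ± 0.07 (adjusted p = 0.177), and Hgf, the growth factor that stellate cells supply to hepatocytes, at 0.19 ± 0.11 (adjusted p = 0.456).

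Some bile duct genes rose in Homo livers. Of 10 listed, 8 were tested, and 2 rose in Homo against WT, the duct keratins Krt7 (3.06 ± 0.40, adjusted p = 0.00043) and Krt19 (2.50 ± 0.39, adjusted p = 0.00305). Both were at low levels. Krt7 averaged 0.27 CPM in WT, 0.34 CPM in Het and 2.28 CPM in Homo. Krt19 averaged 1.19 CPM in WT, 0.84 CPM in Het and 6.76 CPM in Homo. Against Het, Krt7 (2.74 ± 0.42, adjusted p = 0.00575), Krt19 (3.00 ± 0.43, adjusted p = 0.00496) and Epcam, an epithelial adhesion molecule (1.38 ± 0.28, adjusted p = 0.0437), were higher in Homo, and 12 of the 19 fits that left out 1 library lost the call on Epcam. Within mice 8 to 13, Krt7 and Krt19 were at 3.14 and 2.54 in Homo against WT (adjusted p = 0.156 and 0.280), and without mice 1 to 3 Krt19 was at 2.16 (adjusted p = 0.0570). In Homo against Het, Krt7 missed the threshold with limma-voom (adjusted p = 0.0627), and within mice 14 to 20 Krt7 and Krt19 did (2.53 and 2.54, adjusted p = 0.529 and 0.364). The summed level of the list was 133 to 228 CPM in WT (median 154), 130 to 208 CPM in Het (median 162) and 199 to 261 CPM in Homo (median 232). Krt7 and Krt19 were a small part of these sums. Of the 10 genes, 1 was at 0 in every WT library and none in every Homo library. The part of this shift of the bile duct genes in the values of the endothelial genes in Homo livers was not tested.

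Positions are those of GENCODE vM21 on GRCm38. Lyve1 lies on chromosome 7 from 110850607 to 110863239 (minus strand) and shares no exon base with another gene. Exons of Stab1 share 112 bases (1.09% of its exon length) with Nt5dc2 on the opposite strand, those of Stab2 share 141 bases (1.61%) with the antisense gene Gm16268, and those of Clec4g share 146 bases (5.93%) with the antisense gene Gm16553. Whether the counting used strand is not given in the sources used here, so reads from these stretches cannot be assigned to 1 of the 2 genes. The other 7 members share no exon base with another gene.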

How the data were processed

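Total RNA of 19 mouse livers (TRIzol and Qiagen RNeasy, NuGen Ovation libraries, per the labels' protocols) was sequenced. The authors deposited 1 table of raw read counts per gene symbol. Per the submitters' processing notes, STAR 2.7.2b, featureCounts 1.6.4 and GRCm38 were used. Strand setting, annotation and multi-mapping reads: not given in the sources used here. In the table, 27 rows carry a date in place of a symbol; no member is among them.

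From the counts, genes were filtered with filterByExpr by genotype, scaled by TMM and fitted in edgeR 4.0.16 (R 4.3.3) with genotype as the only term over all 19 libraries. Each comparison used the two-sided quasi-likelihood F test, with Benjamini-Hochberg adjustment over all 16463 genes tested and a threshold of 0.05. CPM values are TMM-scaled, and log2 CPM used a prior count of 2. Standard errors were taken as the fold change over the root of the F value. DESeq2 1.42.0, limma 3.58.1 (voom with quality weights), other filters and scalings, subsets of mice and each library left out in turn were alternatives. The code was tested on simulated counts. Each library was taken as 1 mouse; the labels do not say more on sampling, and p-values measure the spread between these samples. Libraries of 1 genotype differed from each other by more than counting noise, with a chi-square per degree of freedom of at least 23.2 for every pair.

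The members and gene lists were chosen with earlier results of these data known. Named were all members, up to 5 called genes and the 3 lowest-p genes of Homo against WT from each other list except the hepatocyte list, which served as a check of the tissue, and the genes most like each member group, of which 1 is not reported here. Genes of the start regions and lists were matched by symbol, and Figf was matched as Vegfd through RefSeq.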

Additional observations from a re-analysis of the deposited data

Results flagged for a closer look

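In 2 of the 30 sets of values, each 1 member in 1 genotype, a liver stood apart from the rest of its genotype by Dixon's criterion, and chance gives about 1 in 20. Kdr was at 69.9 CPM in WT mouse 12, where the next WT liver was at 55.2 CPM and the lowest at 45.3 CPM. Vwf was at 13.6 CPM in Homo mouse 10, where the next Homo liver was at 16.0 CPM and the highest at 17.0 CPM.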

How the results depend on the processing

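Of 1300 values of members under alternatives, 1262 kept their direction and side of the threshold, 34 reversed, 4 were newly called and 0 lost a call. The 79 genes called in Homo against WT became 176 at an adjusted p under 0.10, 304 in DESeq2, 38 with mouse number, 25 without mice 1 to 3 and 2 within mice 8 to 13. Leaving out 1 library gave 35 to 122. The counts were 35 without Homo mouse 15, 36 without WT mouse 3, 41 without Homo mouse 16 or WT mouse 1, 45 without Homo mouse 10, 49 without WT mouse 13 and 122 without WT mouse 12. In Het against WT the 4 became 28 in DESeq2 and 4 to 7 with 1 library left out, 7 without WT mouse 12. In Homo against Het the 30 became 51 at an adjusted p under 0.10, 102 in DESeq2, 16 with limma-voom and 0 within mice 14 to 20. Leaving out 1 library gave 9 to 34: 9 without Het mouse 7, 11 without Homo mouse 15, 12 without Homo mouse 10 or Het mouse 6, 13 without Het mouse 4 and 17 without Homo mouse 8. The 1054 slopes on mouse number became 1713 in DESeq2, 358 without mice 1 to 3 and 651 to 1070 with 1 library left out, 651 without WT mouse 1. With Het and Homo together against WT, chosen after seeing the data, the 20 became 9 with mouse number, 7 without mice 1 to 3 and 10 to 70 with 1 library left out: 10 without WT mouse 3, 12 without WT mouse 1 or 2, 34 without Het mouse 4 and 70 without WT mouse 12. The sinusoidal members called in Homo against WT were 1 at an adjusted p under 0.10, 1 in DESeq2 and 0 to 1 with 1 library left out, and with Het and Homo together 0 to 1, in each case Lyve1; without WT mouse 12 its adjusted p in the latter was 0.0214.

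Reversals were of values near 0. In Homo against WT, Kdr was at -0.00868 with mouse number, -0.0812 without mice 1 to 3 and -0.113 within mice 8 to 13. Vwf was at -0.0499, -0.0568 and -0.141 in these, and Cdh5 at 0.00732 within mice 8 to 13. With 1 library left out, Clec4g ran from -0.0777 to 0.0215 and Emcn from -0.129 to 0.0168. In Homo against Het, Lyve1 was at 0.0317 with mouse number and 0.0336 within mice 14 to 20, and ran from -0.124 to 0.0627 with 1 library left out. Pecam1 was at -0.0164 with limma-voom and -0.0017 within mice 14 to 20 and ran from -0.0279 to 0.0605, Clec4g was at 0.0162 within mice 14 to 20, and Cdh5 ran from -0.00936 to 0.0489. For the slope on mouse number, Kdr was at -0.0158 without mice 1 to 3, Stab1 ran from -0.0306 to 0.0142 and Pecam1 from -0.0364 to 0.0103. With Het and Homo together, Clec4g was at 0.0305 with mouse number and ran from -0.0321 to 0.0603, and Kdr was at -0.0358 without mice 1 to 3. The cause was not tested; the subsets of mice hold fewer samples. No paired analysis was possible because the labels' mouse numbers are unique across genotypes, and replicate numbers were given in accession order. With 25847075 to 42142903 counts per library, the spread between mice exceeded counting noise for every pair of one genotype.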

Other observations

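Some endothelial genes had a slope on the mouse number. With genotype in the fit, 0 of the 10 members had a called slope in edgeR, with 1 sinusoidal member, Lyve1, and 1 general member, Vwf, at an unadjusted p under 0.05. Of the 19 other sinusoidal genes tested, 1 had a called slope, Fcgr2b, an inhibitory Fc receptor of sinusoidal cells (0.22 ± 0.05 on the log2 scale for every 10 numbers, adjusted p = 0.0177). Of 24 other general genes, 3 had one: Nos3, the endothelial nitric oxide synthase (-0.44 ± 0.10, adjusted p = 0.0165), Esam, an adhesion molecule (-0.39 ± 0.09, adjusted p = 0.0153), and Erg, an ETS factor (0.26 ± 0.07, adjusted p = 0.0351). Of 21 genes of arteries, veins and capillarised endothelium, 3 had one, the basement membrane collagens Col4a1 (-0.37 ± 0.07, adjusted p = 0.0056) and Col4a2 (-0.30 ± 0.08, adjusted p = 0.0371) and the diaphragm gene Plvap (-0.17 ± 0.05, adjusted p = 0.0485). Of 5 lymphatic genes, 2 had one, Prox1 (0.70 ± 0.13, adjusted p = 0.00356) and Itga9, an integrin subunit (-0.17 ± 0.05, adjusted p = 0.0406). These genes were named after their values were seen, and 6.4% of all genes had a called slope. The labels do not say what the mouse number stands for.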
